A study of Mus musculus with 8 samples.

Results

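Glycolysis, lactate and pyruvate handling were described through 34 genes, given by symbol and found by Ensembl identifier in a count table of 54532 genes. They comprise glucose transporters, the glycolytic enzymes and their regulators, lactate dehydrogenases and transporters, the mitochondrial entry of pyruvate and the oxygen sensors. The cells were microglia, the macrophages that live in brain and spinal cord, and each of the 8 libraries came from the sorted spinal cord cells of 1 female mouse. There were 4 wild type (WT) mice, numbered 503, 504, 506 and 527, and 4 knock-in (KI) mice, numbered 513, 526, 528 and 549. The KI genotype is labelled Cd11b-P2X4mCherryIN, a name that joins CD11b, a surface protein of myeloid cells, P2X4, a cation channel gated by ATP outside the cell, and the red fluorescent protein mCherry. The labels name no age, disease or treatment for either group and do not say which cells the knock-in allele acts in.

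Glycolysis splits glucose into pyruvate in the cytosol and yields ATP and NADH without oxygen. Pyruvate is then either reduced to lactate by lactate dehydrogenase, which restores NAD+, or carried into mitochondria and turned into acetyl-CoA by pyruvate dehydrogenase. Most steps have several isoforms from separate genes, and microglia are known to raise glycolysis on inflammatory activation, in part through the transcription factor HIF-1. At the lactate step, subunit A (Ldha) favours making lactate and subunit B (Ldhb) favours using it, and both subunits mix in 1 tetramer.

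The start regions of the lactate dehydrogenase genes are shown because these genes had opposite signs in the KI comparison. Each window holds the 250 bases upstream of an annotated start (RefSeq, GRCm38.p6), 5′ to 3′ on the gene's strand, with the letters ACGTG or GCGTG, the core of the HIF-1 response element, or their reverse complements in capitals. Ldha has 2 annotated starts, with windows at chr7:46845554-46845803 and chr7:46846832-46847081 (plus strand), and the Ldhb window lies at chr6:142507958-142508207 (minus strand). None of these windows contains an annotated exon base.
Ldha, first start: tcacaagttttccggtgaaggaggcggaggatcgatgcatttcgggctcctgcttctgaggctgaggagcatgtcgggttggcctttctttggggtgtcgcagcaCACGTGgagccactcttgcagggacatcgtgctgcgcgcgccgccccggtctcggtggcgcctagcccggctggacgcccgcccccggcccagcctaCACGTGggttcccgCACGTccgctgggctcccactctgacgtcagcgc
Ldha, second start: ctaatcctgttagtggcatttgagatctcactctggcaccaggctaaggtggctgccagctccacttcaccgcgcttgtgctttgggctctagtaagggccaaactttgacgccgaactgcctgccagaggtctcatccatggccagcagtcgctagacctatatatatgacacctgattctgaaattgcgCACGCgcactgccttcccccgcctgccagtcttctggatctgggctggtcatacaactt
Ldhb: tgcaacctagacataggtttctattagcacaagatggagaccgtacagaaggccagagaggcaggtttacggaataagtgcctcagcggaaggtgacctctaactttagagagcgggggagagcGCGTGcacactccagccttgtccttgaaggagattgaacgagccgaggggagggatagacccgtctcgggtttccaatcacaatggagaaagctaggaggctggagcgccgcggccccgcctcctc
The first Ldha window held 5 ACGTG positions, where CACGTG reads as ACGTG on both strands and so counts once on each. The second Ldha window and the Ldhb window each held 1 GCGTG and 0 ACGTG. Of all 32851 start windows of the same length, 38.6% held either motif and 16.6% held ACGTG. Of the 48 annotated starts of 33 of the glycolysis genes, 38 (79.2%) held either motif and 21 (43.8%) held ACGTG. The windows of all starts were not matched to these for base composition, and some windows of the same gene overlap, as with Eno1 and Aldoa. The shares are therefore no test of enrichment. A match is a run of letters and says nothing about binding in these cells.

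The labelled cell type was checked against the 8 microglial markers, and all were abundant in every library, from Sall1 (241 to 311 CPM, the TMM-scaled share of a library's reads) to P2ry12 (8109 to 9654 CPM). Their summed level was between 30256 and 34705 CPM in WT and between 29369 and 33218 CPM in KI. Each library held between 45167483 and 54049801 reads on genes. In these bulk libraries, fewer cells with a transcript and less of it per cell cannot be told apart. Library KI 528 stood apart in markers of other myeloid cells, with sums of 24.8 CPM over 8 neutrophil genes and 25.3 CPM over 8 border macrophage genes, against at most 7.98 and 11.2 CPM in the other 7 libraries. Erythroid genes summed to 160 to 524 CPM in WT and 96.6 to 307 CPM in KI, and all 6 tested were lower in KI (median log2 fold change −1.01, 3 at an unadjusted p under 0.05). Immediate early genes, a set that responds to handling of tissue, summed to 5914 to 13888 CPM in WT and 5992 to 14429 CPM in KI, and 15 of the 20 were higher in KI (median 0.29, 0 at an unadjusted p under 0.05). Of the 8 microglial markers, 3 lower and 1 higher in KI were at an unadjusted p under 0.05. Beside each of these lists, 4.56% of all genes tested were lower and 3.23% higher at that p. The groups did not overlap in Csf1r, 1 of the 8 markers, which was lower in KI, and 2.6% of all genes had that order. The part of these markers and of the immediate early genes in the results below was not tested.

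The first question was which isoform of each step these microglia carry, and it was read from CPM per kilobase of exon, the only scale on which levels of different genes were compared. The length covered all annotated exons of a gene, from 1570 bases for Ldhb to 13401 for Pfkp, not the transcripts these cells make. Ranks and shares depend on this choice of length. Ldhb stood far above the rest at 559 ± 34 CPM per kilobase (SD over all 8 libraries), at percentile 99.7 of the 17291 genes tested. The aldolase Aldoa followed at 110 ± 8.84, then the hexokinase Hk2 at 62.6 ± 5.55 and the enolase Eno1 at 61.2 ± 5.05, which did not differ beyond their spread. Ldha (46.4 ± 3.68), Pkm (44.5 ± 5.86) and Pdhb (43.3 ± 3.02) came next, with means that differed by less than the SD of Pkm. At the other end, the neuronal enolase Eno2 (0.158) and the phosphofructokinase Pfkp (0.138) had the lowest mean levels per kilobase, and 29 of the 34 genes had a mean of at least 5 CPM.

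**Figure D1:**
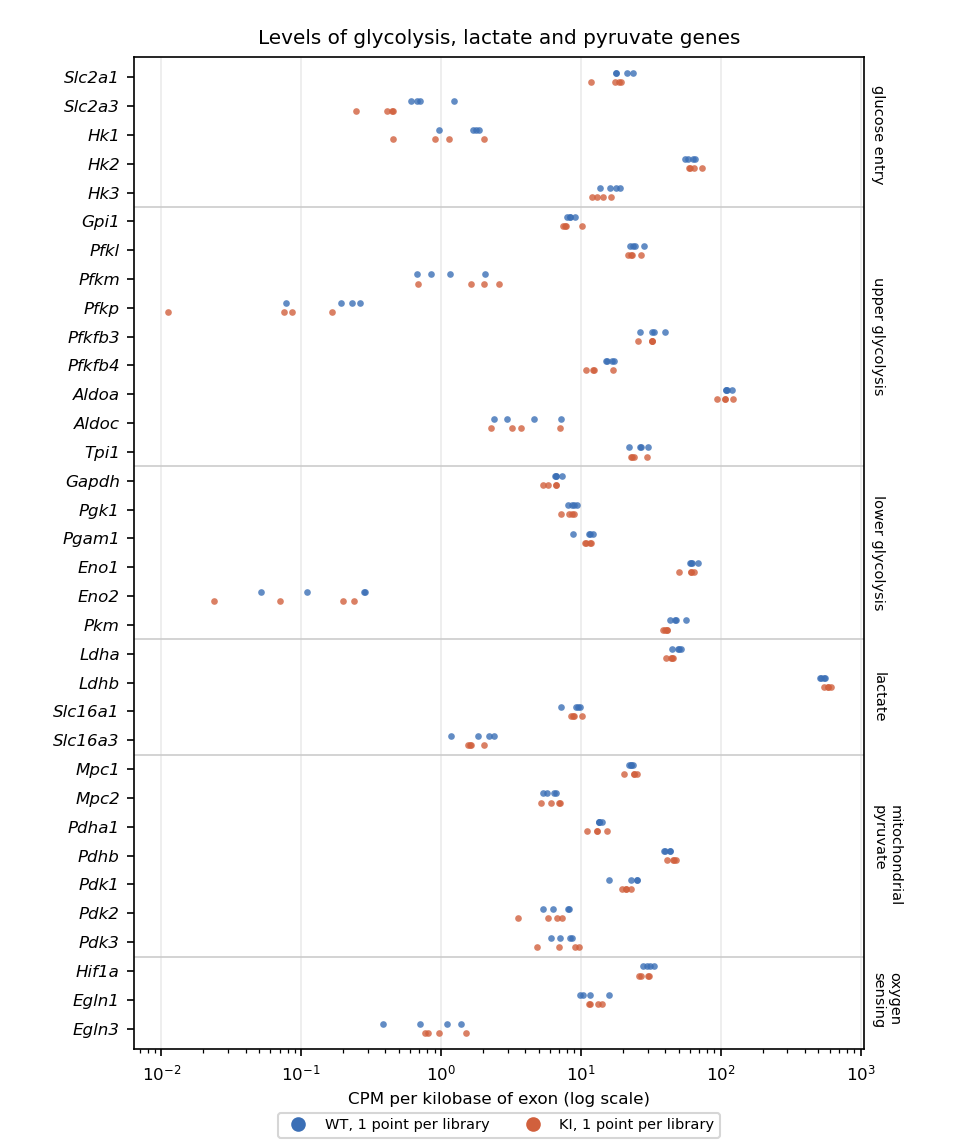
Level of each gene in CPM per kilobase of exon (horizontal axis, log scale), with 1 point per library, blue for WT and orange for KI, and genes in pathway order. Ldhb lies alone at the right near 559, Pfkp and Eno2 lie lowest, and for nearly every gene the colours overlap.

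In most steps 1 isoform dominated in all 8 libraries. Hk2 made up 73.6% to 82.7% of the summed hexokinase level per kilobase, Hk3 16% to 25.2%, and Hk1, the form that most tissues express, the small remainder. Pfkl, the liver type of phosphofructokinase, made up 88.8% to 97.1%, and Pfkfb3 exceeded Pfkfb4 in every library, since the share of Pfkfb4 was 27.3% to 36.2%. Slc2a1 exceeded Slc2a3, whose share of the pair was 1.40% to 6.48%. Aldoc reached 2.06% to 6.97% of the aldolase level and Eno2 at most 0.475% of the enolase level. At the lactate step Ldhb made up 91.2% to 93.5%. Of the summed level of the monocarboxylate transporters Slc16a1 and Slc16a3, Slc16a3 took 14.1% to 19.4%. Another transporter of this kind, Slc16a7, was not in that sum and is described with the further isoforms. It had 44.7 to 72.2 CPM, and no level per kilobase is given for it. Which of these transporters is the main one is therefore not settled here. The pyruvate dehydrogenase kinases were the most evenly mixed, with Pdk1 at 48.7% to 66.8%, Pdk2 at 11.2% to 25.0% and Pdk3 at 15.6% to 26.2%.

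The comparison of the study asks how KI microglia differ from WT microglia, and none of the 34 genes passed it. All 34 entered the edgeR quasi-likelihood fit over 17291 genes, and 0 were called at an adjusted p under 0.05, where 0 of all genes (0%) were called. At an unadjusted p under 0.05 were 4 of the 34 (11.8%), Slc2a3, Pkm and Ldha lower and Ldhb higher in KI, against a background of 7.79% of all genes tested. By direction, 3 lower members (8.82%) stood beside 4.56% of all genes and 1 higher member (2.94%) beside 3.23%. The groups did not overlap in Slc2a3 and Pkm, 2 of the 34 (5.88%), beside 4.94% of all genes. In both the KI libraries were the lower ones, which held for 2.6% of all genes, and 0 members had KI above WT throughout, beside 2.34%. DESeq2 called 0.804% of all genes, the likelihood ratio test of edgeR 0.243% and limma-voom 0%, and each of these called 0 members. The count of 4 was 2 without WT 506 and 7 without KI 549.

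The fitted log2 fold change was below 0 in 23 of the 34 genes (67.6%), where 49.9% of all genes were below 0, and the median was −0.08 against 0.00 over all genes. With 1 library left out the count ran from 21 to 26 and the median from −0.10 to −0.04, the latter without WT 527 and also without KI 526. The 95% interval stayed within 1.5-fold of no change for 23 of the genes and within 2-fold for 28. The median log2 fold change was −0.26 in the 5 genes of glucose entry, −0.08 in the 9 of upper glycolysis, −0.11 in the 6 of lower glycolysis, −0.07 in the 4 of the lactate step, 0.02 in the 7 of mitochondrial pyruvate and 0.07 in the 3 oxygen sensing genes. Of the 18 glycolytic enzymes and regulators from Hk1 to Pkm, 15 were below 0.

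**Figure D2:**
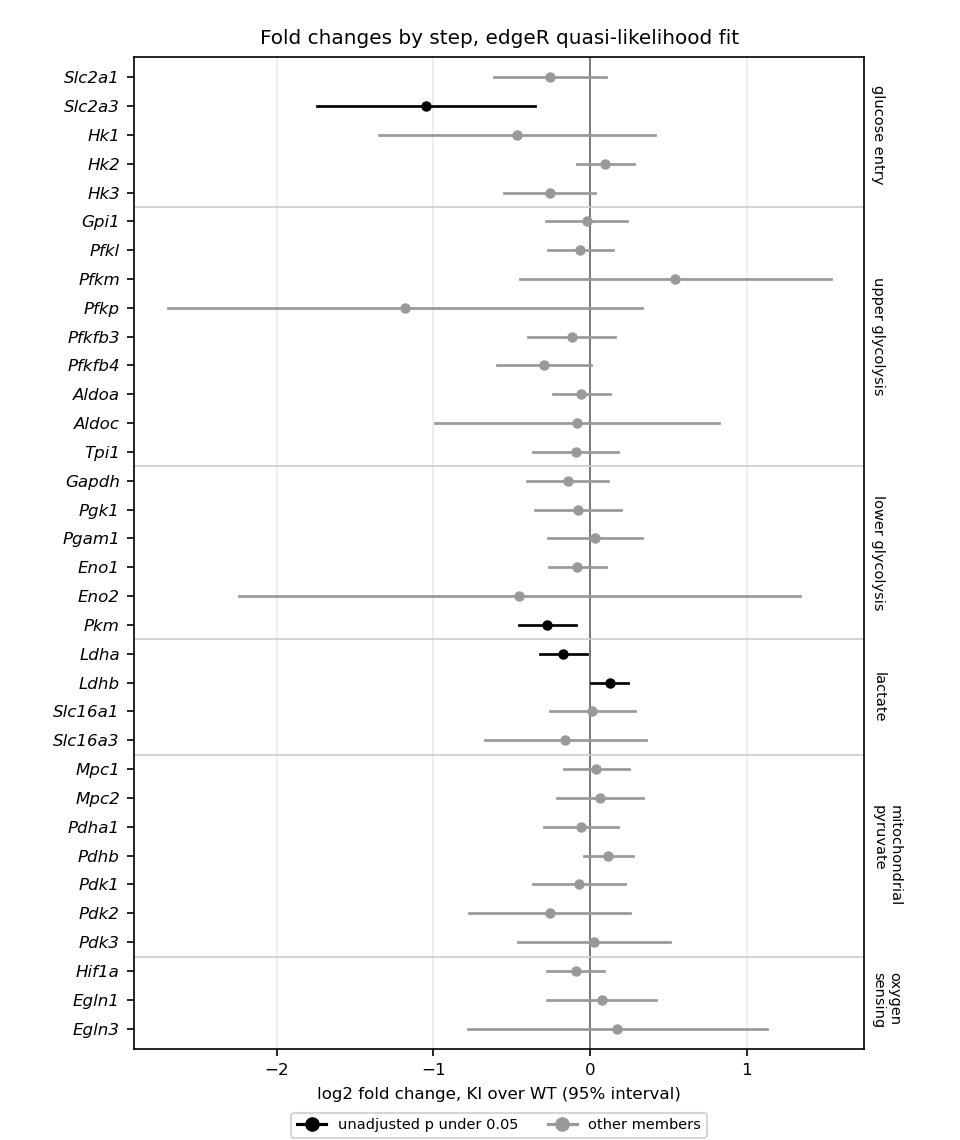
Log2 fold change of KI over WT for each gene (horizontal axis) with its 95% interval from the edgeR quasi-likelihood fit, black where the unadjusted p was under 0.05. Most points lie slightly left of 0, and the widest intervals belong to genes of low level such as Pfkp, Eno2 and Pfkm.

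The slope of levels on GC content averaged higher in WT than in KI, with overlap, and is given beside these counts. The transcripts of the 34 genes had a median GC of 52.4%, against 48.5% over all genes tested. The slope of a library's log2 levels on GC averaged 0.042 ± 0.0505 per 10 points over the WT libraries and −0.042 ± 0.0622 over the KI libraries (SD, exact permutation p = 0.0571), with WT 504 (−0.029) and KI 549 (0.045) on the side of the other group. Of the 24 members above the median GC of all genes, 18 were lower in KI, and of the other 10, 5 were. With the GC trend removed from each library, 20 of the 34 were lower in KI and the median was −0.04. With the trend on exon length removed, 22 were lower and the median was also −0.04.

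Glucose enters through transporters of the GLUT family and is trapped by hexokinase. Slc2a3 (GLUT3, a high-affinity transporter; ENSMUSG00000003153, mm10 chromosome 6, 122727809 to 122801640, minus strand) was read at 4.89, 8.91, 5.14 and 4.44 CPM in WT 503, 504, 506 and 527. In KI 513, 526, 528 and 549 it was read at 3.28, 3.0, 1.80 and 3.21 CPM. All 4 KI libraries lay below all 4 WT libraries, and WT 504 stood well above the other WT libraries. The WT mean was 5.85 ± 2.06 CPM and the KI mean 2.82 ± 0.694 CPM (SD of 4 libraries), a log2 fold change of −1.05 (SE 0.313, 95% interval −1.75 to −0.35, edgeR adjusted p = 0.533). Without WT 504 the log2 fold change was −0.77, and on log2(FPKM + 1), a scale that shrinks low genes, it was −0.38. Slc2a3 is a low transcript here, at 0.598 CPM per kilobase. Summed markers of neurons, in which GLUT3 is the main glucose transporter, were 4.38 to 8.31 CPM in WT and 0.932 to 16.9 CPM in KI, with the highest sum in KI 526 and the lowest in KI 528.

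Slc2a1 (GLUT1, the general glucose transporter) had 62.3, 62.2, 82.1 and 74.7 CPM in the WT libraries and 67.4, 41.4, 61.5 and 65.5 CPM in the KI libraries. The groups overlapped, and KI 526 was the lowest of all 8 libraries (log2 fold change −0.25, 95% interval −0.61 to 0.10, edgeR adjusted p = 0.768). Without KI 526 the log2 fold change of Slc2a1 was −0.12. Hk2, the inducible hexokinase that binds mitochondria, had 375, 389, 331 and 349 CPM in WT and 355, 386, 440 and 362 CPM in KI. It was the 1 gene of glucose entry with a positive log2 fold change (0.10, −0.09 to 0.28, edgeR adjusted p = 0.852), and KI 528 was its highest library. Hk3, a hexokinase of myeloid cells, averaged 61.4 ± 8.44 CPM in the WT libraries and 51.3 ± 7.05 in the KI libraries (−0.26, edgeR adjusted p = 0.689), and Hk1 averaged 13.4 ± 3.51 and 9.68 ± 5.68 CPM. Both overlapped between the groups, with Hk1 spanning 3.86 to 17.4 CPM within KI alone.

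Upper glycolysis turns glucose 6-phosphate into triose phosphates, with phosphofructokinase as the committed step. In this group of 9 genes 8 had a negative log2 fold change, 0 had an unadjusted p under 0.05, and the groups overlapped in all 9. Gpi1, the isomerase, had 53.5, 51.3, 53.5 and 58.2 CPM in WT and 50.5, 47.8, 65.6 and 49.3 CPM in KI, where KI 528 stood apart from the other KI libraries. Pfkl had 151, 157, 164 and 189 CPM in WT and 180, 145, 153 and 154 CPM in KI, with the libraries of both groups interleaved (log2 fold change −0.06, 95% interval −0.27 to 0.14). The minor forms were too variable to place: Pfkm had means of 3.96 ± 2.04 (WT) and 5.77 ± 2.66 CPM (KI), and Pfkp averaged 2.58 ± 1.09 and 1.13 ± 0.851 CPM (−1.18, −2.70 to 0.33).

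Pfkfb3 and Pfkfb4 make and break fructose 2,6-bisphosphate, the main activator of phosphofructokinase. Pfkfb3 had 245, 200, 303 and 251 CPM in WT and 245, 192, 243 and 242 CPM in KI. Its KI libraries were close together except KI 526, and the WT libraries spread on both sides of them (log2 fold change −0.12, 95% interval −0.39 to 0.16). Pfkfb4 had means of 78.3 ± 4.95 (WT) and 64.0 ± 13.3 CPM (KI) (−0.29, edgeR adjusted p = 0.656), and KI 549 at 83.2 CPM lay inside the WT range while the other KI libraries lay below it. Without KI 549, Pfkfb4 had a log2 fold change of −0.44.

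Aldoa, the aldolase of muscle and most other tissues, had 316, 318, 322 and 352 CPM in WT and 315, 273, 357 and 313 CPM in KI. KI 526 was its lowest library and KI 528 its highest, so the KI group spanned the whole WT range (log2 fold change −0.06, 95% interval −0.24 to 0.13). Tpi1, which interconverts the triose phosphates, had 73.6, 60.5, 73.5 and 83.8 CPM in WT and 64.1, 62.4, 81.2 and 65.5 CPM in KI, again with KI 528 apart from the other KI libraries. Aldoc, a brain form found in astrocytes, varied from 7.39 to 23.6 CPM over the 8 libraries with no difference in the group means beyond that spread (14 ± 7.1 and 13.2 ± 6.78 CPM). The libraries highest in Aldoc, WT 527 (23.6 CPM) and KI 526 (23 CPM), also had the highest sums of oligodendrocyte markers (292 and 290 CPM, against 151 to 260 in the others). Their sums of astrocyte markers, 333 and 369 CPM, lay within the 313 to 386 CPM of the other libraries. Slc1a3 alone gave 311 and 341 CPM of these sums, so they mostly follow that gene. Gfap was highest in WT 527 (7.62 CPM) and KI 526 (9.99 CPM), with at most 6.05 CPM elsewhere. It was the only astrocyte marker of the list with these as its highest libraries. The part of other cells in Aldoc was not tested.

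Lower glycolysis carries triose phosphate to pyruvate, and its last enzyme, pyruvate kinase, was 1 of the 2 members whose groups did not overlap. Pkm (ENSMUSG00000032294, mm10 chromosome 9, 59656368 to 59679375, plus strand) had 217, 234, 240 and 282 CPM in WT and 208, 192, 206 and 200 CPM in KI. All 4 KI libraries lay below the lowest WT library, though only by a small gap, and the KI group was the tighter of the pair. The WT mean was 244 ± 27.7 CPM and the KI mean 201 ± 7.21 CPM (SD of 4 libraries), a log2 fold change of −0.27 (SE 0.082, 95% interval −0.46 to −0.09, edgeR adjusted p = 0.533). Without WT 527, its highest library, the log2 fold change of Pkm was −0.19. Pkm is GC-rich (57.7%), and with the GC trend removed its log2 fold change was −0.15 (edgeR unadjusted p = 0.0895, against 0.00734 in the reported fit). Counts per gene do not separate the M1 and M2 splice forms of this enzyme.

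The other steps of lower glycolysis did not separate. Gapdh had 27.4, 26.9, 27.3 and 30.5 CPM in WT and 24.2, 22.3, 27.3 and 27.6 CPM in KI, with overlap (log2 fold change −0.14, 95% interval −0.40 to 0.12). Pgk1, the first ATP-making kinase of the pathway, had 19.3, 19.9, 18.3 and 21.1 CPM in WT and 18.5, 16.3, 19.5 and 20.2 CPM in KI, interleaved. Pgam1, the phosphoglycerate mutase, had 20.9, 16.1, 21.1 and 22.3 CPM in WT and 21.3, 19.5, 21.5 and 19.97 CPM in KI. For Pgam1 the lowest library was WT 504 and the other 7 were close together. Eno1 had 325, 333, 327 and 369 CPM in WT and 330, 273, 349 and 329 CPM in KI, with KI 526 lowest and WT 527 highest. Eno2 stayed under 1.4 CPM in every library and its interval ran from −2.24 to 1.34 on the log2 scale.

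**Figure D3:**
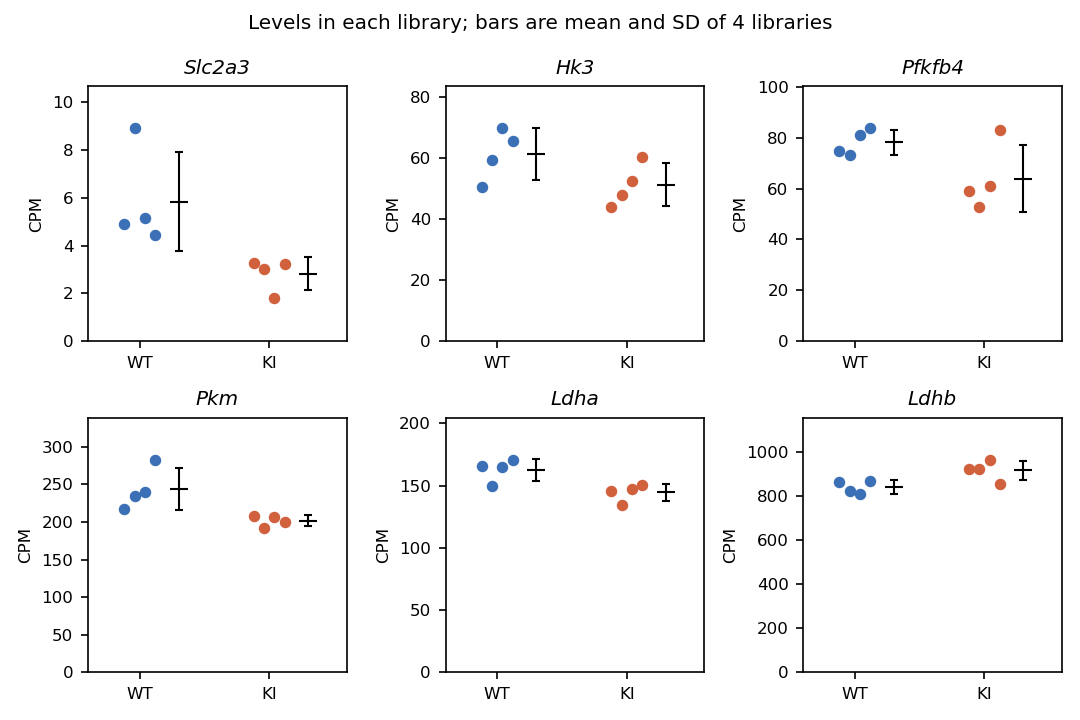
CPM in each library (vertical axes from 0) for Slc2a3, Hk3, Pfkfb4, Pkm, Ldha and Ldhb, with points in order of mouse number and bars for the mean and SD of 4 libraries. Slc2a3 and Pkm are the panels in which every KI point lies below every WT point, while in Hk3, Pfkfb4, Ldha and Ldhb at least 1 KI library falls inside the WT range.

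At the lactate step the subunit genes had opposite signs. Ldha (ENSMUSG00000063229, mm10 chromosome 7, 46841475 to 46855627, plus strand) had 166, 150, 165 and 171 CPM in WT and 146, 135, 147 and 150 CPM in KI. WT 504 and KI 549 met at 150 CPM, and the other WT libraries lay above all KI libraries. The log2 fold change of Ldha was −0.17 (SE 0.068, 95% interval −0.32 to −0.02, edgeR adjusted p = 0.60), from 163 ± 9.12 CPM to 145 ± 6.73 CPM. Ldhb (ENSMUSG00000030246, mm10 chromosome 6, 142490249 to 142507957, minus strand) had 862, 820, 808 and 868 CPM in WT and 921, 922, 962 and 855 CPM in KI. All KI libraries but KI 549 lay above every WT library. The log2 fold change of Ldhb was 0.12 (SE 0.054, 95% interval 0.00 to 0.24, edgeR adjusted p = 0.631), from 840 ± 30.1 CPM to 915 ± 44.1. With the GC trend removed the log2 fold change was 0.19 for Ldhb (edgeR unadjusted p = 0.0103) and −0.13 for Ldha (edgeR unadjusted p = 0.0730).

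The share of Ldhb in the summed level of both subunits, which does not depend on how libraries are scaled, was 91.6%, 92.0%, 91.2% and 91.5% in the WT libraries and 93.0%, 93.5%, 93.2% and 92.3% in the KI libraries. Every KI library lay above every WT library, by a mean of 1.43 percentage points (91.6% ± 0.360 and 93.0% ± 0.514, SD of 4 libraries). The exact permutation p was 0.0286, the smallest that 4 libraries against 4 can give, and 0.279 after adjustment over the 13 shares. A single separated share cannot pass this adjustment at that smallest p. The adjusted values therefore do not decide whether the share of Ldhb differs. None of the 13 shares had an adjusted p under 0.05, the lowest being 0.279 (exact permutation tests). The next in size of p were the shares of Hk2 (76.8% ± 3.12 in WT, 81.1% ± 2.97 in KI), Slc2a3 (3.97% ± 1.72 and 2.35% ± 0.812) and Pfkp (0.734% ± 0.293 and 0.334% ± 0.263), each with an exact permutation p of 0.0857. Without WT 504 the difference in the Slc2a3 share was −0.783 points, against −1.62 with all libraries. The shares of Pdk1, Pdk2 and Pdk3 differed by less than their spread.

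**Figure D4:**
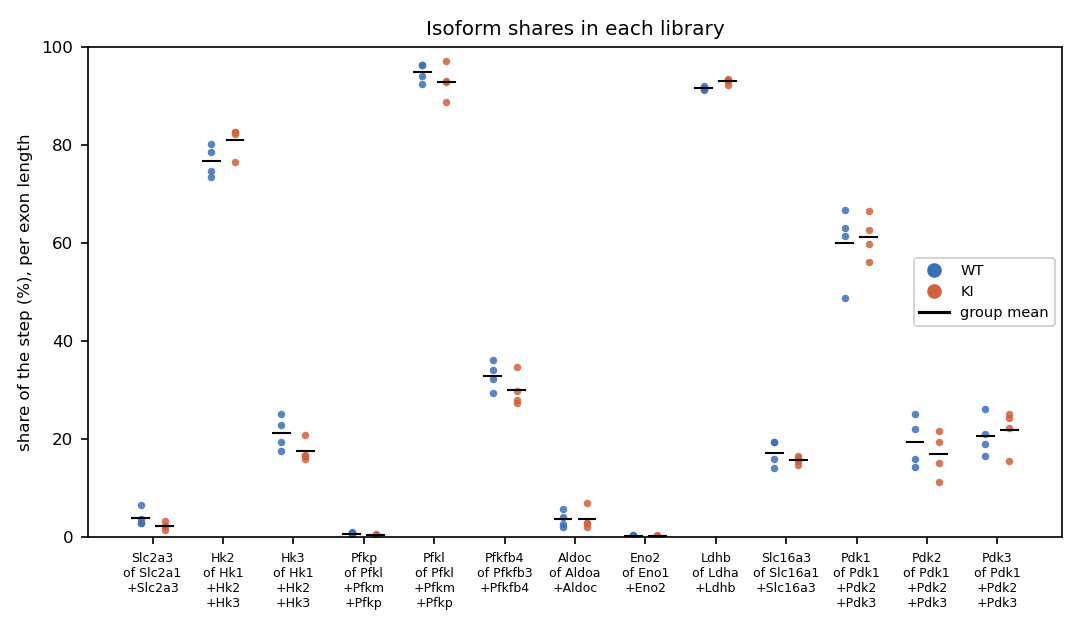
Share of an isoform in the summed per-kilobase level of its step (vertical axis, percent) in each library, blue for WT, orange for KI, with a bar for the group mean. Ldhb is the share in which the colours separate, at 91.2% to 92.0% in WT and 92.3% to 93.5% in KI.

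Lactate crosses the membrane through monocarboxylate transporters. Slc16a1 (MCT1) had 40.8, 32.0, 44.0 and 42.5 CPM in WT and 45, 38.8, 39.6 and 37.4 CPM in KI, with WT 504 lowest and the rest interleaved (log2 fold change 0.01, 95% interval −0.26 to 0.28). Slc16a3 (MCT4, the exporter of highly glycolytic cells) averaged 10.1 ± 2.84 and 9.08 ± 1.15 CPM, with overlap.

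Pyruvate enters mitochondria through a carrier of the Mpc1 and Mpc2 proteins and is oxidised by pyruvate dehydrogenase, which the Pdk kinases switch off. Of these 7 genes 4 had a positive log2 fold change, and 0 had an unadjusted p under 0.05. Mpc1 had 47.8, 47.3, 45.8 and 49.4 CPM in WT and 42.7, 52.6, 50.3 and 50.2 CPM in KI, where KI 513 was the lowest library and the other KI libraries the highest. Pdhb, the beta subunit of the first component of pyruvate dehydrogenase, had 168, 152, 153 and 168 CPM in WT and 184, 175, 159 and 178 CPM in KI. For Pdhb, KI 528 was the library that fell inside the WT range (log2 fold change 0.12, 95% interval −0.04 to 0.27, edgeR adjusted p = 0.755). Pdk1, the kinase that hypoxia induces, had 124, 176, 195 and 194 CPM in WT and 178, 152, 163 and 163 CPM in KI. WT 503 was lowest and the other WT libraries spread over and above the KI range (−0.07, −0.36 to 0.22). Mpc2, Pdha1, Pdk2 and Pdk3 had log2 fold changes from −0.26 (Pdk2) to 0.06 (Mpc2), all with overlap.

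Hif1a encodes the oxygen-regulated subunit of HIF-1, and the Egln enzymes mark it for destruction when oxygen is present. Hif1a had 163, 195, 174 and 184 CPM in WT and 159, 178, 154 and 181 CPM in KI, interleaved (log2 fold change −0.09, 95% interval −0.27 to 0.09). Egln1 had 57.2, 41.6, 35.7 and 37.0 CPM in WT and 41.7, 40.9, 47.5 and 50.5 CPM in KI, with WT libraries both highest and lowest. Egln3, itself a HIF target, was low, at 1.03 to 4.04 CPM over the 8 libraries. HIF-1 acts largely through protein stability, which counts of transcripts do not measure.

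**Figure D5:**
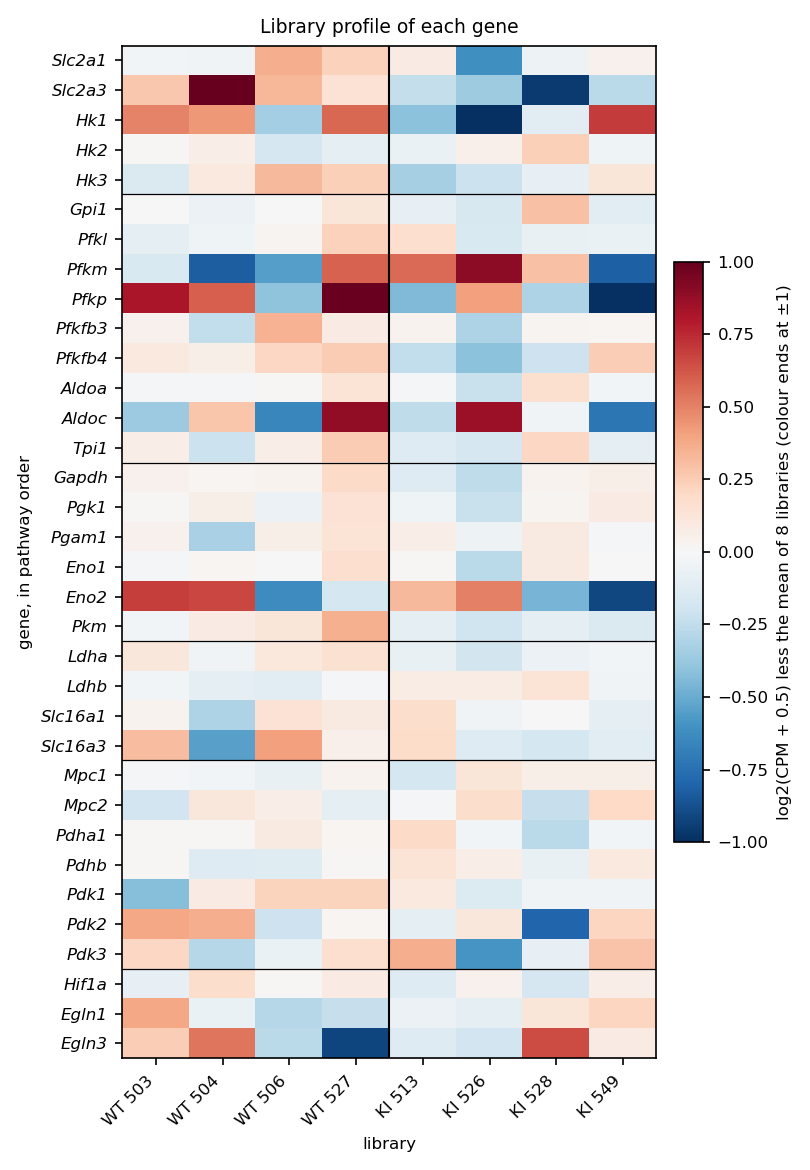
Log2(CPM + 0.5) of each gene less its mean over the 8 libraries, with libraries in columns (WT left of the line, KI right) and genes in pathway order, and colour ending at 1 on either side. WT 527 is warm and KI 526 cool along most glycolytic enzymes. Within KI, Gpi1, Aldoa, Tpi1 and Eno1 are cool in KI 526 and warm in KI 528.

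The mean profiles of the libraries overlapped between the groups. Over the 34 genes the mean of log2(CPM + 0.5), centred on the 8 libraries, was 0.08, 0.04, −0.03 and 0.15 in WT 503, 504, 506 and 527. In KI 513, 526, 528 and 549 it was −0.02, −0.09, −0.05 and −0.08. Over the 18 glycolytic enzymes and regulators the highest library was WT 527 (0.28), and WT 506 (−0.09) lay below KI 513, 526 and 528. The lowest values of WT 506 were those of minor isoforms, Aldoc (−0.65), Eno2 (−0.63), Pfkm (−0.55), Pfkp (−0.40) and Hk1 (−0.34). Among abundant genes it had −0.17 for Hk2, −0.004 for Eno1, 0.01 for Aldoa and 0.12 for Pkm. Each gene had the same weight, so the place of WT 506 on this mean rests largely on genes of low level. KI 528, the library with more myeloid markers, was at 0.00 on this mean, and the part of those markers in the values was not tested.

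Several members share coding sequence with genes elsewhere in the genome, and a read that fits both can be counted at either. Without strand in the counting, overlapping genes on the opposite strand are not separated either, as with Hif1a and Gm15283. For Mpc1 the processed pseudogene Mpc1-ps held 40988 reads over the 8 libraries against 19254 at Mpc1 itself, and for Gapdh 76 other loci held 5319 reads against 10625. Pgam1-ps2 held 4410 reads against 8091 at Pgam1, the copies of Eno1 held 23521 against 130740, Gm6560 held 8728 against 88506 at Pkm, and Gm5514 held 15252 against 348724 at Ldhb. The coding sequences of Mpc1 and Ldhb are shown beside their copies, over 90 bases each, the first because its copy held more reads than the gene and the second because Ldhb is the most abundant member. Capitals mark bases that differ within a pair (GENCODE, mm10).
Mpc1: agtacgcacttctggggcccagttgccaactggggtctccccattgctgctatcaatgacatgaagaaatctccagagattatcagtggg
Mpc1-ps: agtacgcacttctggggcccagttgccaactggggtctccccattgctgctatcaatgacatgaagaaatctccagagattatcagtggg
Ldhb: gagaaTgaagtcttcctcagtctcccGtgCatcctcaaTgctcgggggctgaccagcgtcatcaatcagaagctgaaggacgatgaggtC
Gm5514: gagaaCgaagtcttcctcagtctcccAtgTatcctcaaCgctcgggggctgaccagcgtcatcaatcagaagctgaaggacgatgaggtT
Mpc1 and Mpc1-ps had 0 mismatches over 258 aligned coding bases, and Ldhb and Gm5514 had 20 over 1002. With the reads of such copies added, the log2 fold changes were −0.27 for Pkm, −0.17 for Ldha, 0.12 for Ldhb and −0.09 for Gapdh. The level of Gapdh itself, 6.46 CPM per kilobase, stood at percentile 64.8 of the genes tested, and whether reads of genes with many copies were lost before counting was not tested.

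Other isoforms of these steps were read from the same fit. Of 34 further isoforms and partners 18 were tested, 13 were lower in KI, the median log2 fold change was −0.23, and 2 had an unadjusted p under 0.05, beside 49.9% and 7.79% of all genes. Slc2a5, a fructose transporter typical of microglia, was abundant, with 761, 833, 850 and 915 CPM in WT and 748, 678, 668 and 781 CPM in KI. Its means of 840 ± 63.1 and 719 ± 54.7 CPM differed by −0.22 on the log2 scale (edgeR adjusted p = 0.554), with KI 549 inside the WT range. Slc16a7 (MCT2), the high-affinity monocarboxylate transporter, had 68.6, 72.2, 66.6 and 64.9 CPM in WT and 54.0, 64.2, 44.7 and 49.8 CPM in KI. All KI libraries of Slc16a7 lay below all WT libraries (−0.36, 95% interval −0.61 to −0.10, edgeR adjusted p = 0.553). That order held for 1 of the 18 tested and for 2.6% of all genes. Slc2a8, an intracellular glucose transporter, averaged 19.5 ± 6.38 and 12.8 ± 4.19 CPM with overlap.

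The rest of the pyruvate dehydrogenase complex showed no gene with an unadjusted p under 0.05 among 7 tested (3 lower, median 0.08). Of 4 further oxygen sensing genes 3 were lower, and Egln2, another HIF prolyl hydroxylase, had 19.2, 16.9, 20.5 and 17 CPM in WT and 15.9, 13.1, 15.6 and 13.5 CPM in KI. The Egln2 groups did not overlap (log2 fold change −0.34, edgeR adjusted p = 0.609). KI lay below WT throughout in 1 of these 4 genes and in 2.6% of all genes tested. Of 16 tested HIF target genes outside the pathway 7 were lower and the median was 0.03. Among them Mxi1, a repressor of MYC targets, averaged 28.7 ± 4.75 and 36.5 ± 3.36 CPM (0.35, edgeR adjusted p = 0.598), and Bnip3l, a mitophagy receptor, averaged 310 ± 11.5 and 342 ± 27.1 CPM with all KI libraries above all WT libraries. KI lay above WT throughout in 1 of the 16 and in 2.34% of all genes tested. These HIF target genes had no common sign in KI.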

How the data were processed

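Microglia were sorted as living CD11b+ CD45-low Ly6C- cells, and libraries were made with a low-input kit, per the labels' protocols. The deposited counts are reads over exons summed by gene, made by featureCounts 2.0.3 with primary alignments and no strand option, per the file headers. No option to count a pair once is given, so both mates can be counted. STAR 2.7.5c and mm10 are named in the submitters' processing notes. The authors also deposited FPKM values and a normalized signal, each count divided by 1 factor per library, in which whole reads were recovered for 100% of values within 0.01. FPKM served only as an alternative. The 8 columns of the count table whose names match no library were not used.

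Symbols came from GENCODE (54409 genes matched). The counts were fitted with edgeR 4.0.16 in R 4.3.3 (TMM scaling, filterByExpr with minimum count 10 and total 15, quasi-likelihood test, group as the only term). Benjamini-Hochberg adjustment ran over 17291 genes with a threshold of 0.05. The scripts were tested on simulated data. CPM was scaled by TMM. Isoform shares used counts per exon length and a 2-sided exact permutation test over 70 assignments. Near-identical copies were found with blastn 2.17.0 at 95% identity over 100 bases. Alternatives were other scalings and filters, DESeq2 1.42.0, the likelihood ratio test, limma 3.58.1, removal of GC or length trends and each library left out.

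The members and lists were chosen with earlier results of these data known. Values in every library were printed for members with an unadjusted p under 0.05, members without overlap and the most abundant isoform of each step, and of each other list up to 3 genes with the smallest p and a mean of at least 5 CPM, plus Slc2a5. A gene that this rule names is not reported here. Each library is 1 mouse, and values after ± are SDs over the 4 libraries of a group unless stated otherwise. The libraries held 45167483 to 54049801 reads on genes.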

Additional observations from a re-analysis of the deposited data

Results flagged for a closer look

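In 8 of 94 groups of 4 libraries, 1 library stood apart from the rest by a gap past Dixon's limit for 4 values, where chance alone gives about 1 in 20 groups. In WT, Slc2a3 was at 8.91 CPM in WT 504 against 4.44 to 5.14 in the others, Gapdh at 30.5 CPM in WT 527 against 26.9 to 27.4, and Pdha1 at 53.1 CPM in WT 506 against 50.4 to 50.6. In KI 528, Gpi1 was at 65.6 CPM against 47.8 to 50.5 in the other KI libraries, and Tpi1 at 81.2 CPM against 62.4 to 65.5. Pfkfb3 was at 192 CPM in KI 526 against 242 to 245 in the other KI libraries. In KI 549 the share of Hk2 was 76.6% against 82.2% to 82.7%, and that of Hk3 20.8% against 16% to 16.7%.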

How the results depend on the processing

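No member passed an adjusted p under 0.05 in the reported fit or any of the 22 other settings, the lowest being 0.0852 for Slc2a3 by DESeq2. Over these settings the adjusted p ran from 0.0852 to 0.864 for Slc2a3 and from 0.104 to 0.864 for Pkm, and the log2 fold change of Slc2a3 from −1.16 to −0.38 (on log2(FPKM + 1)). Not every setting tested every member. The filter at a mean of 5 CPM kept 29 of the 34, without Slc2a3, Pfkm, Pfkp, Eno2 and Egln3, and DESeq2 gave no adjusted p for Pfkp, Eno2 and Egln3. Over all genes DESeq2 called 139 and the likelihood ratio test 42, against 0. The count of members with an unadjusted p under 0.05 was 2 with the GC trend removed (Slc2a3 and Ldhb). It was 2 with the exon length trend removed (Slc2a3 and Pkm), and 2 to 7 with 1 library left out. Of 743 recomputed member fold changes 30 had the opposite sign, in 11 members, and 23 members kept their sign. Pdk3 was −0.0291 by limma-voom, −0.0171 on log2(FPKM + 1) and −0.0224 on log2(FPKM + 0.1). With the GC trend removed, Gpi1 was 0.0305, Pfkl 0.0520, Aldoa 0.0571, Eno1 0.0359 and Slc16a1 −0.0381, and with the length trend removed Gpi1 was 0.0167. Pgam1 was −0.00911 with named copies added and −0.00867 with copies found by sequence, an alternative chosen after seeing the data. With 1 library left out the ranges were −0.0594 to 0.0873 for Pgam1, −0.0774 to 0.0654 for Slc16a1, −0.109 to 0.185 for Pdk3, −0.00333 to 0.244 for Egln1, −0.137 to 0.0222 for Gpi1, −0.136 to 0.00895 for Pfkl, −0.493 to 0.288 for Aldoc, −0.0859 to 0.464 for Egln3, −0.121 to 0.00249 for Aldoa and −0.140 to 0.0154 for Pdha1. The same ranges for the difference in share were −0.991 to 0.769 points for Aldoc, −0.136 to 0.00828 for Eno2, −2.49 to 3.51 for Pdk1 and −0.229 to 3.24 for Pdk3. With the length of the transcript of longest coding sequence, also chosen after seeing the data, the difference was −0.721 points for Pfkp and 2.01 for Ldhb. The causes were not tested. No paired analysis was possible because the groups share no mouse numbers. Pfkp, Eno2, Egln3, Slc2a3 and Pfkm averaged under 5 CPM over the 8 libraries, and what limits their precision was not tested.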

Other observations

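Beyond the glycolytic steps, the pathways that branch from them had no common direction. Of 9 tested genes of the pentose phosphate pathway 5 were lower in KI (median log2 fold change −0.05). Tkt, the transketolase, had 73.7, 77.0, 78.4 and 92.4 CPM in WT and 66.6, 71.6, 69.4 and 72.5 CPM in KI, with every KI library below every WT library (−0.20, edgeR adjusted p = 0.638). Of 11 tested glycogen genes 7 were lower, with a median of −0.03. The brain glycogen phosphorylase Pygb had means of 27.6 ± 2.31 (WT) and 20.7 ± 1.28 CPM (KI, SD of 4 libraries each), again without overlap (−0.42, 95% interval −0.68 to −0.16, edgeR adjusted p = 0.507). KI lay below WT throughout in 1 of the 9 pentose phosphate genes, 1 of the 11 glycogen genes and 2.6% of all genes tested. Gyg, the primer of glycogen synthesis, averaged 28.2 ± 8.58 and 38.5 ± 5.38 CPM with overlap.

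Of 20 tested genes of the citric acid cycle 13 were higher in KI (median 0.03) and 6 had an unadjusted p under 0.05, 4 higher and 2 lower. Over all genes tested, 7.79% were under that p, 3.23% higher and 4.56% lower. Sdhd, a membrane subunit of succinate dehydrogenase, had 131, 141, 134 and 121 CPM in WT and 141, 163, 156 and 155 CPM in KI (0.22, edgeR adjusted p = 0.554). Every KI library of Sdhd lay above every WT library, narrowly so for KI 513 (141.2 CPM) over WT 504 (140.5 CPM). KI lay above WT throughout in 1 of the 20 genes and below in 1, beside 2.34% and 2.6% of all genes tested. Ogdh, of the oxoglutarate dehydrogenase complex, averaged 117 ± 20.7 and 87.9 ± 14.8 CPM with overlap (−0.41, edgeR adjusted p = 0.585).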
